A study of Mus musculus with 2 samples.

Results

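The SLC25 carriers are the largest family of solute transporters of the mitochondrial inner membrane, and the uncoupling proteins Ucp1, Ucp2 and Ucp3 belong to the same family by structure. Genes were taken as members when their symbol was Slc25a followed by a number, or was Ucp1, Ucp2, Ucp3 or Mtch2, which encodes a divergent relative of the outer membrane. This gave 51 genes out of 20282 genes with a symbol on the array, and 42 of the 51 were well above background in at least 1 pool, as were 13846 of all genes.

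The RNA came from the left ventricles of male mice aged 12 weeks, collected at ZT 2, with ZT counted in hours from lights on. The knockout pool held RNA of 6 H-Bmal1-/- mice, which carry a floxed Bmal1 gene (official symbol Arntl) together with a transgene that expresses Cre recombinase from the αMHC promoter, so that the gene is disrupted in cardiomyocytes. The control pool held RNA of 6 littermates that also carry the floxed Bmal1 gene but lack Cre, and whose genotype the sample labels give as wildtype. Each pool was hybridized to 1 Agilent single-color array, so no spread between animals could be measured, no test was possible, and no comparison of Cre alone was made. BMAL1 is the transcription factor that, with CLOCK or NPAS2, drives the circadian clock by binding E-box letters in promoters, and the comparison asks how its loss in the heart changes the transcripts of these carriers.

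The inner membrane is closed to most solutes, and the carriers exchange metabolites, nucleotides, cofactors and ions across it, 1 substrate against another or together with a proton. In the heart, which makes most of its ATP from fatty acids, they export ATP, bring in ADP, phosphate and acylcarnitines, and pass reducing equivalents from the cytosol to the matrix. The uncoupling proteins can let protons back into the matrix, as Ucp1 does in brown fat to make heat, whereas the roles of Ucp2 and Ucp3 are less settled.

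Levels are given as relative signal, the processed signal of a gene divided by the 75th percentile of its own array, and differences as log2 ratios of the knockout pool over the control pool. Probes bind their targets with different strength, so a level was set only against the same gene in the other pool. The median SD of a log2 ratio between repeat spots of 1 probe was 0.07, over 247 probes that the arrays carry at least 8 times. The error that the scanner software attaches to each spot gave a median error estimate of 0.20 for the log2 ratio of a member. Both measure the arrays, not the animals. Arntl itself had a relative signal of 1.7254 in the knockout pool and 2.9997 in the control pool, a log2 ratio of -0.80 from 1 probe, and whether that probe lies in the excised exon was not given. Its direct target Nr1d1 had 0.529 in the knockout pool and 2.25 in the control pool, a log2 ratio of -2.09, and Dbp, another direct target, had 6.83 in the knockout pool and 8.77 in the control pool, a log2 ratio of -0.36. Among other clock genes, Per2 had 0.125 in the knockout pool and 0.0271 in the control pool, and Npas2 had 0.120 in the knockout pool and 0.0529 in the control pool, where both control levels lay under the lowest control signal counted as above background, 0.0646. The share of spots well above background was 50.03% on the knockout array and 49.39% on the control array.

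To show what lies in front of the members that differed most between the pools, the 250 bases before the RefSeq transcription start of 6 genes were printed, with build GRCm38.p6. Slc25a42, Slc25a34 and Slc25a20 had the lowest log2 ratios among members measured in both pools, Ucp2 had the highest, and Slc25a13 and Slc25a36 hold a canonical E-box and lay on opposite sides of 0. Capitals mark CACGTG, the canonical E-box that BMAL1 binds with its partner, and AGGTCA or its reverse complement TGACCT, the core letters bound by REV-ERB, ROR, ERR and, in pairs, PPAR receptors. Each sequence runs 5′ to 3′ on the strand of its gene.
Slc25a42 (chr8:70212282-70212531, minus strand): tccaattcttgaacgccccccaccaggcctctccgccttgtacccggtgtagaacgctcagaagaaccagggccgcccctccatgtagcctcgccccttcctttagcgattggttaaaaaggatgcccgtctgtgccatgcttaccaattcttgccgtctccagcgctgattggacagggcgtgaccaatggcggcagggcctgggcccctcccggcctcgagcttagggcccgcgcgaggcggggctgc
Slc25a34 (chr4:141623835-141624084, minus strand): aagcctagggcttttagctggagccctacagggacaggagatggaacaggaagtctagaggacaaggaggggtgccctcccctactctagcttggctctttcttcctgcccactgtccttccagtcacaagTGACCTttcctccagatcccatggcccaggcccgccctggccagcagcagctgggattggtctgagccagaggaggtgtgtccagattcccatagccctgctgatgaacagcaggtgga
Slc25a20 (chr9:108661886-108662135, plus strand): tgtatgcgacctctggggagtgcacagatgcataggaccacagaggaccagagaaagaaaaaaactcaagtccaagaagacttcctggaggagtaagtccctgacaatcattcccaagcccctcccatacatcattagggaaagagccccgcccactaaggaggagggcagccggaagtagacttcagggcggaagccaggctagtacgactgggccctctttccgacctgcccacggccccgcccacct
Ucp2 (chr7:100493108-100493357, plus strand): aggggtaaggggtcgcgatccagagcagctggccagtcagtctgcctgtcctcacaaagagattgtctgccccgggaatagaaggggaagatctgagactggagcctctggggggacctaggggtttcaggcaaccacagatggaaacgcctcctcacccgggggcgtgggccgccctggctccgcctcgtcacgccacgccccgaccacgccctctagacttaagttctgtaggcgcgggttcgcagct
Slc25a13 (chr6:6217174-6217423, minus strand): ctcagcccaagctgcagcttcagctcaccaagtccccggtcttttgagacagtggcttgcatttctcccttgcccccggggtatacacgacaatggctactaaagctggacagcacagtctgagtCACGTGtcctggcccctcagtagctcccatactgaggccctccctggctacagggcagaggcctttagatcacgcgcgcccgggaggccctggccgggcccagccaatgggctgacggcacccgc
Slc25a36 (chr9:97111042-97111291, minus strand): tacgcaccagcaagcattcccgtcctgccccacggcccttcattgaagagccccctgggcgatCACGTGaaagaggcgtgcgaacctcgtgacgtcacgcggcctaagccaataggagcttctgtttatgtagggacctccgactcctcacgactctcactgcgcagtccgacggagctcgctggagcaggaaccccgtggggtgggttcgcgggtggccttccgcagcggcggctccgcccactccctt

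The windows of Slc25a42, Slc25a20 and Ucp2 hold none of the letters searched. The E-box starts 125 bases before the start of Slc25a13 and 187 bases before that of Slc25a36, and the TGACCT of Slc25a34 starts 119 bases before its start. Of the 51 members, 40 have such a window in the RefSeq table, 50 windows in all. CACGTG was found in 8 of these windows (16%), against 6.02% of all 32851 windows of mouse genes. Overlapping windows of Slc25a14 hold the same E-box, so it was counted more than once. The windows belonged to 7 of the 40 genes, Slc25a1, Slc25a13, Slc25a14, Slc25a15, Slc25a31, Slc25a33 and Slc25a36. Of the 6 of these genes that were measured, 2 were lower and 4 were higher in the knockout pool, with log2 ratios between -0.34 and 0.34, although Slc25a33 turned higher without scaling and Slc25a15 turned lower under the normexp background correction. The noncanonical E-box CACGTT, searched on both strands, lay before Slc25a28, Slc25a30 and Slc25a43, in 6% of member windows and 3.85% of all windows. AGGTCA, searched on both strands, lay before Mtch2, Slc25a34, Slc25a39, Slc25a45, Slc25a47, Ucp1 and Ucp3, in 14% of member windows and 14% of all windows. No hits of different motifs overlapped in a member window. A match is a run of letters in the window and was not tested for binding.

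In this bulk RNA, fewer cells of a type and less RNA per cell cannot be told apart. Over the 42 measured members, 26 (61.9%) had a log2 ratio below 0, against 51.6% of all measured genes, and the median was -0.11, against -0.01 for all measured genes. If the arrays are left unscaled, each log2 ratio is 0.15 higher, so that the median of all genes is 0.14. Relative to that shift the order is the same, but only 18 members (42.9%) then lie below 0, against 30.2% of all genes, and the median of the members turns to 0.04. With all probes, also those at background, 30 of the 51 members (58.8%) lay below 0, against 60.2% of all genes. Past 1.5-fold on the higher side lay 1 member, Ucp2, against 6.15% of all measured genes. Past 1.5-fold on the lower side lay 3 members, Slc25a42, Slc25a34 and Slc25a53, against 5.83% of all measured genes. At a log2 difference of at least 0.32, Ucp2, Slc25a37 and Slc25a14 were higher, against a background of 14.2%, and 7 members were lower, against 15%, the other 4 being Slc25a20, Slc25a22, Slc25a29 and Slc25a13. At 2-fold, 0 members were higher and 2 were lower, Slc25a42 and Slc25a53, where the shares of all genes were 2.41% and 2.05%. Slc25a53 entered these counts only through the control pool. Among the 41 members well above background in both pools, 25 (61.0%) lay below 0, with a median of -0.11, and 2 were past 1.5-fold on the lower side. Most of the family thus lay within 1.5-fold, as did most of all measured genes.

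**Figure D1:**
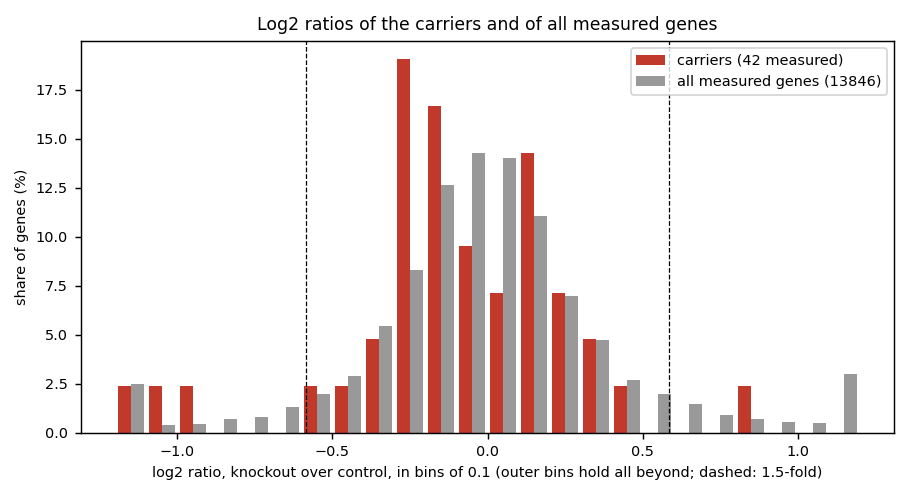
Share of genes (vertical axis, %) in bins of 0.1 of the log2 ratio of the knockout over the control pool (horizontal axis), for the 42 measured carriers (red) and all 13846 measured genes (grey). Dashed lines mark 1.5-fold, and the outermost bins hold all values below -1.1 or above 1.1. The tallest red bar, from -0.3 to -0.2, holds 8 carriers, 19.0% of them and 8.30% of all genes.

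The adenine nucleotide and phosphate carriers supply ATP synthase and deliver its product to the cytosol. Of 6 measured, 3 lay below and 3 above 0, the median was 0.00, and without scaling 2 lay below 0. Slc25a4, the ADP/ATP carrier of heart and skeletal muscle, had 1673 in the knockout pool and 1890 in the control pool, 1.13-fold lower. Its probe is printed 10 times, of which 3 spots carried an outlier flag, and the other 7 gave log2 ratios between -0.20 and -0.14 around a mean of -0.18. Without scaling this becomes -0.02, and under quantile normalization 0.00. Slc25a5, the more widely expressed ADP/ATP carrier, had 24.5 in the knockout pool and 23.1 in the control pool, a log2 ratio of 0.08. Slc25a3, which brings phosphate and copper into the matrix, had 51.7 in the knockout pool and 59.5 in the control pool, and its 2 probes gave -0.12 and -0.28. Slc25a4 and Slc25a3 were thus slightly lower with the scaling used here, and Slc25a3 stood at -0.05 without scaling. The log2 ratio of Slc25a5 was smaller than its error estimate of 0.20.

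The calcium-sensitive ATP-Mg/phosphate carriers set the total adenine nucleotide content of the matrix. Slc25a24 had 1.34 in the knockout pool and 1.22 in the control pool (log2 ratio 0.13), and Slc25a25 had 0.688 in the knockout pool and 0.629 in the control pool, with probes at 0.05 and 0.20. For Slc25a23 the values were 0.231 in the knockout pool and 0.246 in the control pool, a log2 ratio of -0.09 that turns to 0.06 without scaling. Their relative Slc25a41 and the ADP/ATP carrier of the testis, Slc25a31, were not well above background in either pool.

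**Figure D2:**
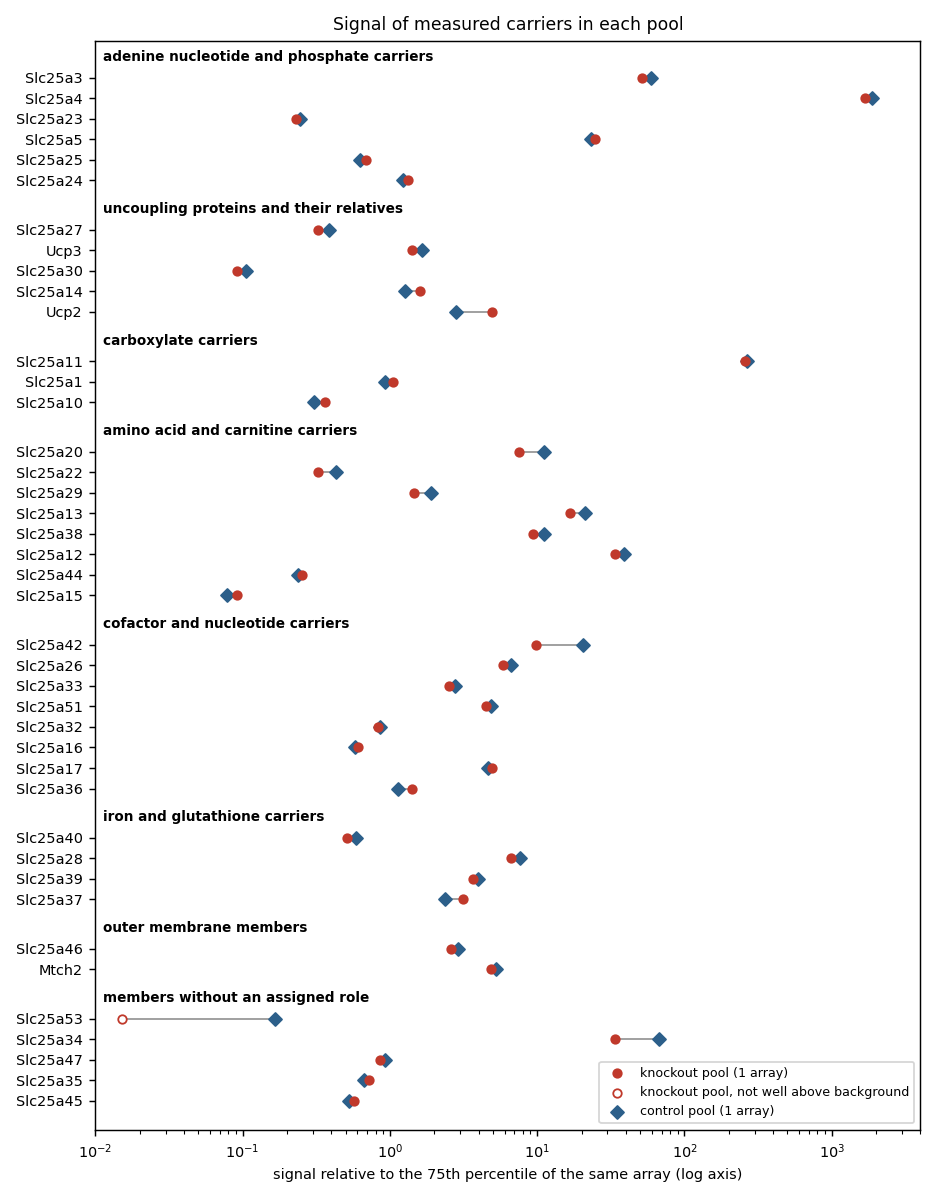
Relative signal (horizontal log axis, multiples of the 75th percentile of the same array) of 41 of the 42 measured carriers, by role, in the knockout pool (red circles) and the control pool (blue diamonds), 1 array each. Levels may be compared only within a row. The widest gaps are those of Slc25a53, open in the knockout pool because it was not well above background there, Slc25a42, Slc25a34 and Ucp2.

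Among the uncoupling proteins and their relatives, 3 of 5 measured were lower, also without scaling, with a median log2 ratio of -0.22, but with the brightest probe of each gene 2 of 5 were lower and the median was 0.34, because Ucp3 changed side. Ucp2 had 4.94 in the knockout pool and 2.83 in the control pool, 1.74-fold higher from 1 probe. Its log2 ratio of 0.80 lay between 0.76 and 0.95 under the other normalizations, no scaling and normexp. Of all other measured genes, 653 had a higher ratio than Ucp2. Ucp2 is also expressed by macrophages and other leukocytes, and of 6 measured markers of these cells 4 had a log2 ratio above 0 and 2 below it, with 0.05 as the median and 0.14 as the highest value, that of Adgre1. Without scaling, 5 of the 6 lay above 0. Their summed relative signal was 16.6 in the knockout pool and 16.3 in the control pool, no probe was matched to Cd68, and their part in the level of Ucp2 was not tested.

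Ucp3, the form of skeletal muscle and heart, lies next to Ucp2 on chromosome 7 and has 2 measured probes that went opposite ways. The dimmer probe had 0.418 in the knockout pool and 0.959 in the control pool, 2.29-fold lower, and the brighter probe had 4.72 in the knockout pool and 2.88 in the control pool, 1.64-fold higher. Both name the same RefSeq transcript. Their log2 ratios were -1.20 and 0.71, with error estimates of 0.21 and 0.20. The mean of -0.24 therefore describes neither probe, and the brightest probe alone gives 0.71, so no direction was given to Ucp3.

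Of the relatives, Slc25a14 (UCP5) had 1.60 in the knockout pool and 1.26 in the control pool, 1.27-fold higher. Slc25a27 (UCP4) had 0.323 in the knockout pool and 0.387 in the control pool, 1.20-fold lower. Slc25a30, close to background, had 0.091 in the knockout pool and 0.106 in the control pool, and its log2 ratio of -0.22 was smaller than its error estimate of 0.39. Ucp1, which marks brown fat, was not well above background in either pool, and neither were the adipocyte genes Adipoq, Cidec, Lep and Elovl3. Cidea, a brown fat marker that mouse heart also expresses, had 53.8 in the knockout pool and 33.3 in the control pool, 1.61-fold higher, and Prdm16 stood at -0.15, turning to 0.00 without scaling. Plin1 had 0.0640 in the knockout pool, under the lowest control signal counted as above background of 0.0646, and was not well above background in the control pool, so no ratio was given.

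Of the amino acid and carnitine carriers, 6 of 8 measured were lower, against 51.6% of all measured genes, with a median log2 ratio of -0.30. The same 6 were lower without scaling, against 30.2% of all genes. With the scaling used here, 3 of 4 iron and glutathione carriers and both outer membrane members were also lower. Slc25a20, which exchanges acylcarnitines for carnitine and so admits long-chain fatty acids to β-oxidation, had 7.53 in the knockout pool and 11.0 in the control pool, 1.47-fold lower, just inside the 1.5-fold limit. The aspartate/glutamate carriers of the malate-aspartate shuttle were lower as well. Slc25a12 (aralar), the main form of heart, had 33.8 in the knockout pool and 38.9 in the control pool. Its log2 ratio of -0.20 was no larger than its error estimate of 0.20 and became -0.05 without scaling. Slc25a13 (citrin) had 16.6 in the knockout pool and 21.0 in the control pool, a log2 ratio of -0.34.

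The glutamate carrier Slc25a22 had 0.324 in the knockout pool and 0.431 in the control pool, 1.33-fold lower, while the related Slc25a18 was not well above background in either pool. Slc25a29, which carries basic amino acids, had 1.47 in the knockout pool and 1.90 in the control pool, 1.29-fold lower. Slc25a38, the glycine carrier needed for heme synthesis, had 9.40 in the knockout pool and 11.2 in the control pool, 1.19-fold lower. On the other side of 0 was Slc25a15, an ornithine carrier, with 0.091 in the knockout pool and 0.078 in the control pool, a log2 ratio of 0.23 that turned to -0.11 under normexp and was under its error estimate of 0.37. Slc25a44, which carries branched-chain amino acids, had 0.255 in the knockout pool and 0.236 in the control pool, with probes at 0.23 and -0.01. The other ornithine carrier, Slc25a2, was not well above background in either pool.

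**Figure D3:**
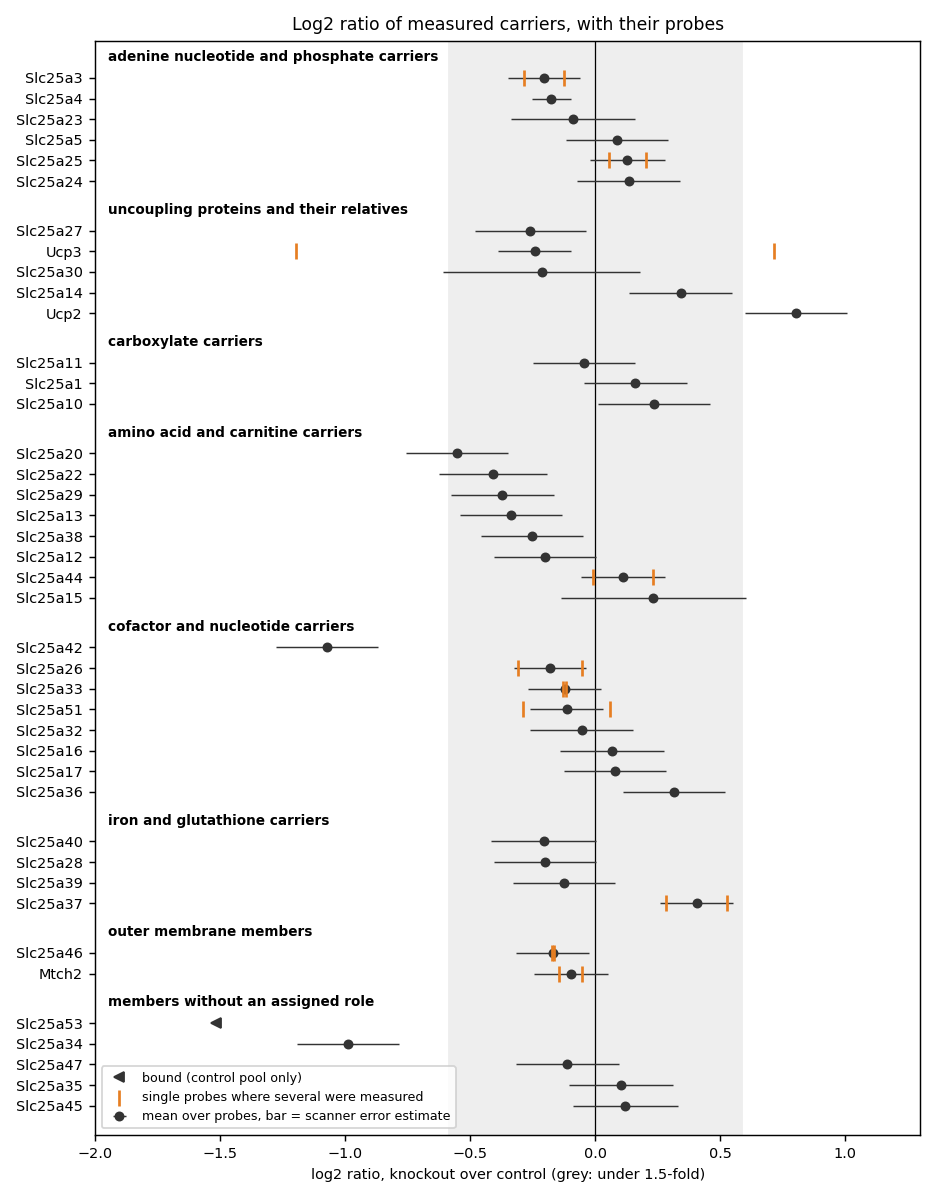
Log2 ratio of the knockout over the control pool (horizontal axis) of 41 of the 42 measured carriers, by role. Black points are means over probes, bars the error estimate of the scanner software, orange ticks single probes of genes with several, and the grey band differences under 1.5-fold. Outside the band are Ucp2 above and Slc25a42, Slc25a34 and, as a bound, Slc25a53 below, and the ticks of Ucp3 lie at -1.20 and 0.71.

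The cofactor and nucleotide carriers were mixed, with 5 of 9 lower, a median log2 ratio of -0.06, and 2 of 9 lower without scaling. Slc25a42, which brings coenzyme A into the matrix in exchange for adenine nucleotides, was the lowest member measured in both pools. It had 9.77 in the knockout pool and 20.6 in the control pool, 2.11-fold lower from 1 probe. Its log2 ratio of -1.07 lay between -1.10 and -0.92 under the other normalizations, no scaling and normexp. Of all other measured genes, 353 had a lower ratio. Slc25a16, which has been tied to coenzyme A through its yeast relative, had 0.611 in the knockout pool and 0.584 in the control pool, a log2 ratio of 0.07. Slc25a17, the peroxisomal carrier of coenzyme A and flavin and nicotinamide nucleotides, had 4.92 in the knockout pool and 4.66 in the control pool, a log2 ratio of 0.08. Both log2 ratios were under their error estimates, 0.21 for Slc25a16 and 0.20 for Slc25a17, whereas the difference of Slc25a42 exceeded its estimate of 0.20.

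For the pyrimidine nucleotide carriers, Slc25a36 had 1.42 in the knockout pool and 1.14 in the control pool (log2 ratio 0.31), whereas Slc25a33 had 2.53 in the knockout pool and 2.75 in the control pool, with probes at -0.12 and -0.13 that turn to a mean of 0.03 without scaling. Slc25a26, which brings in S-adenosylmethionine, had 5.88 in the knockout pool and 6.67 in the control pool, with probes at -0.05 and -0.31. Slc25a32, a carrier of folate or flavin, had 0.826 in the knockout pool and 0.859 in the control pool, a log2 ratio of -0.06 that turns to 0.10 without scaling. The NAD carrier Slc25a51 had 4.47 in the knockout pool and 4.85 in the control pool, but its probes stood at 0.06 and -0.29, and the mean of -0.12 turned higher with the brightest probe alone and without scaling.

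Carboxylate carriers link the citric acid cycle with the cytosol, and 1 of 3 measured was lower, with a median log2 ratio of 0.16, or 0 of 3 without scaling and under normexp. Slc25a11, the oxoglutarate/malate carrier, had 258 in the knockout pool and 266 in the control pool, a log2 ratio of -0.04 that turned to 0.11 without scaling and to 0.03 under normexp. Slc25a1, which exports citrate, had 1.04 in the knockout pool and 0.933 in the control pool, a log2 ratio of 0.16. Slc25a10, the dicarboxylate carrier, had 0.360 in the knockout pool and 0.306 in the control pool, a log2 ratio of 0.23 against an error estimate of 0.22. The oxodicarboxylate carrier Slc25a21 was not well above background in either pool. The oxoglutarate/malate carrier, partner of the aspartate/glutamate carriers in the malate-aspartate shuttle, was thus near 0. Its log2 ratio and that of Slc25a12 both lay within error estimates of 0.20.

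Iron and glutathione carriers supply heme and iron-sulfur cluster synthesis and matrix redox defense. Here 3 of 4 were lower, or 2 of 4 without scaling, and the median was -0.16. The mitoferrins lay on opposite sides of 0. Slc25a37 (mitoferrin 1), the form best known from red cell precursors, had 3.16 in the knockout pool and 2.38 in the control pool, 1.32-fold higher, with probes at 0.28 and 0.53. Slc25a28 (mitoferrin 2) had 6.65 in the knockout pool and 7.65 in the control pool, a log2 ratio of -0.20. Erythroid markers stood at a median of 0.14, with Alas2 the highest at 0.26 and Slc4a1 the lowest at -0.03, which turns to 0.12 without scaling and above 0 under quantile normalization and cyclic loess. Their summed relative signal was 1632 in the knockout pool and 1509 in the control pool, and their part in the level of Slc25a37 was not tested. The glutathione carriers Slc25a39 and Slc25a40 had log2 ratios of -0.13 and -0.21. Slc25a39 had 3.65 in the knockout pool and 3.98 in the control pool and turns to 0.02 without scaling, and Slc25a40 had 0.509 in the knockout pool and 0.587 in the control pool.

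Both outer membrane members were slightly lower, or 1 of 2 without scaling. Mtch2, which in human cells inserts tail-anchored proteins into the outer membrane, had 4.89 in the knockout pool and 5.23 in the control pool as the mean of 2 probes at -0.14 and -0.05, turning to 0.05 without scaling. Slc25a46, which is involved in fusion of mitochondria and lipid transfer, had 2.59 in the knockout pool and 2.92 in the control pool, with probes at -0.17 and -0.17.

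Of the members to which no substrate was assigned here, 3 of 5 measured lay below 0 with a median of -0.11, or 2 of 5 without scaling. Within this group, Slc25a34 had the lowest ratio of those measured in both pools. It had 33.7 in the knockout pool and 66.9 in the control pool, 1.98-fold lower from 1 probe. Its log2 ratio of -0.99 lay between -0.995 and -0.837 under the other normalizations, no scaling and normexp. Of all other measured genes, 403 had a lower ratio. Its paralog Slc25a35 had 0.719 in the knockout pool and 0.670 in the control pool, a log2 ratio of 0.10. Slc25a45 had 0.571 in the knockout pool and 0.526 in the control pool (0.12), and Slc25a47, a gene of the liver, had 0.861 in the knockout pool and 0.930 in the control pool (-0.11, turning to 0.04 without scaling).

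Slc25a53 is a special case, because 1 of its 2 probes was well above background, and only in the control pool. That probe had processed signals of 2.86 in the knockout pool and 28.5 in the control pool, and the other had 2.57 in both. Set against the lowest signal counted as above background on the knockout array, the knockout level of Slc25a53 was at least 2.86-fold lower. The error estimate of its log2 ratio was 1.47, the largest of all members, and under normexp the log2 ratio was -0.55, under 1.5-fold. Slc25a43, Slc25a48 and Slc25a54 were not well above background in either pool. Over all 9 such members, Slc25a2, Slc25a18, Slc25a21, Slc25a31, Slc25a41, Slc25a43, Slc25a48, Slc25a54 and Ucp1, processed signals ran between 2.35 and 7.76 in the knockout pool and between 2.26 and 4.40 in the control pool, so no ratio was formed.

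For 32 of the measured members the ratio rests on 1 probe. Of the 10 with several, 3 (Ucp3, Slc25a44 and Slc25a51) had probes on both sides of 0, against 31.0% of the 3541 genes with several measured probes. The log2 ratio exceeded 2 error estimates in 6 members, Ucp2 and Slc25a37 on the higher side and Slc25a42, Slc25a34, Slc25a20 and Slc25a4 on the lower side. The bound of Slc25a53 did not. The direction of 32 members held under all alternatives, 17 lower and 15 higher. Not all of these alternatives were separate checks. A member with 1 probe on the array has the same value under every choice or combination of probes. The median over probes and the authors' value table moved 0 members by more than the median SD between repeat spots. The 8 members that turned higher without scaling, which were Mtch2, Slc25a11, Slc25a23, Slc25a32, Slc25a33, Slc25a39, Slc25a47 and Slc25a51, all had log2 ratios between -0.13 and -0.04.

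**Figure D4:**
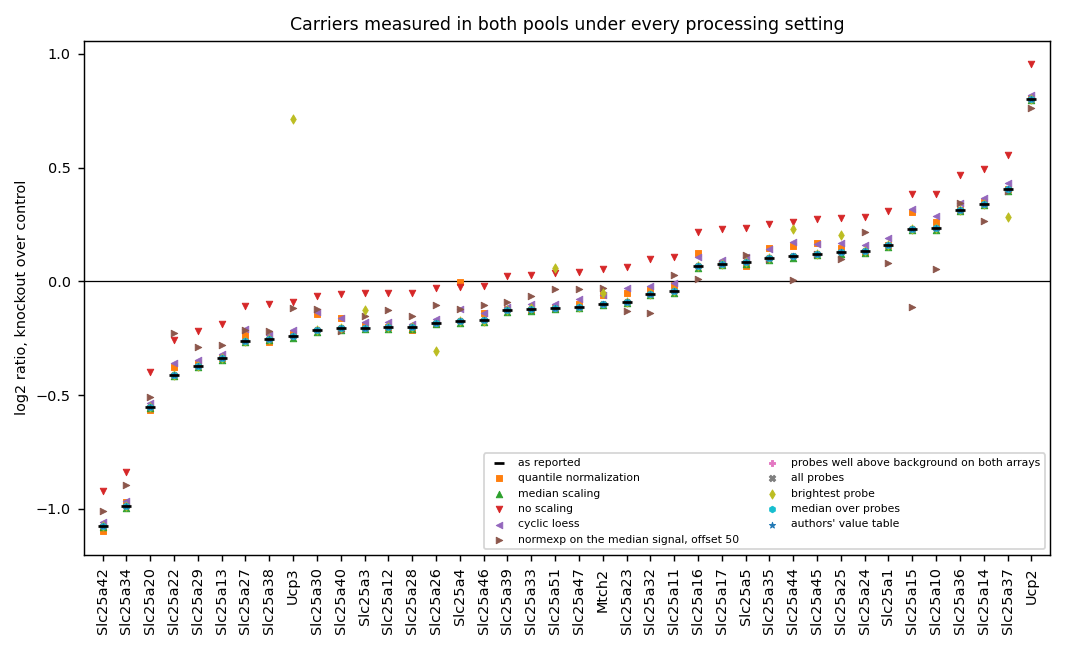
Log2 ratio of the knockout over the control pool (vertical axis) of 40 of the 41 carriers well above background in both pools, ordered from lowest to highest, with the value as reported (black bar) and under each processing alternative (symbols). Values without scaling (red triangles) lie 0.15 above the reported ones, and the brightest probe alone takes Ucp3 to 0.71.

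The genes that work with the carriers were described from lists by role. Of 57 measured, 39 (68.4%) had a log2 ratio below 0, against 51.6% of all measured genes, and the median was -0.10. Past 1.5-fold, 2 were lower (Ppargc1a and Sfxn5), against 5.83% of all measured genes, and 0 were higher, against 6.15%. Without scaling, 24 (42.1%) lay below 0, against 30.2% of all genes, and the median turned to 0.05. Neither Ppargc1a nor Sfxn5 then passed 1.5-fold, and Cpt1c did on the higher side. All 4 enzymes of the malate-aspartate shuttle, which works through Slc25a12, Slc25a13 and Slc25a11, were lower, between -0.49 for Got1, the cytosolic aspartate aminotransferase, and -0.12 for Mdh2, the matrix malate dehydrogenase. Without scaling, 2 of these 4 were lower and Mdh2 stood at 0.04, and under quantile normalization Mdh2 stood at 0.05. Of the carnitine acyltransferases, which make and use the cargo of Slc25a20, 4 of 5 were lower with a median of -0.35, also without scaling (4 of 5). The lowest was Cpt2, the inner membrane enzyme, with 11.2 in the knockout pool and 15.4 in the control pool (-0.46), and the exception was Cpt1c, the form of brain, with 0.220 in the knockout pool and 0.159 in the control pool (0.46).

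The import machinery that brings carriers from the cytosol to the inner membrane was split, with 5 of 10 lower, a median of 0.03 and 1 of 10 lower without scaling or 2 under normexp. Agk, a lipid kinase and subunit of the carrier translocase, was lowest at -0.37, and Timm10, a small chaperone of the intermembrane space, was highest at 0.32. Around ADP/ATP exchange, Ckmt1, a mitochondrial creatine kinase, stood at -0.17 and Ppif, the cyclophilin that regulates the permeability transition, at 0.30, with 3 of 5 lower, or 2 of 5 without scaling. Of the outer membrane channels, 2 of 3 were lower, or 1 of 3 without scaling, and Vdac1 stood at -0.22 and Vdac2 at 0.15. In mitochondrial iron use, 4 of 6 were lower, or 1 of 6 without scaling, and Alas2 was highest at 0.26. Of 16 measured inner membrane transporters outside the family, 9 were lower, or 7 without scaling. The lowest was Sfxn5, a sideroflexin, with 0.225 in the knockout pool and 0.341 in the control pool, 1.51-fold lower. It fell inside 1.5-fold without scaling (-0.45), under quantile normalization (-0.56) and under normexp (-0.35). The same held under cyclic loess and with all probes. Slc8b1 was not measured.

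The PPAR, PGC-1 and ERR regulators, which drive transcription of many mitochondrial genes, were lower in 8 of 8 cases with a median of -0.33, and in 6 of 8 without scaling. Ppargc1a (PGC-1α) was lowest, with 2.62 in the knockout pool and 4.25 in the control pool. Its log2 ratio of -0.70 was the mean of probes at -0.95 and -0.45, the second of them inside 1.5-fold. Pparg was highest at -0.04, turning to 0.11 without scaling. Their part in the ratios of Slc25a42, Slc25a34 or Slc25a20 was not tested.

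**Figure D5:**
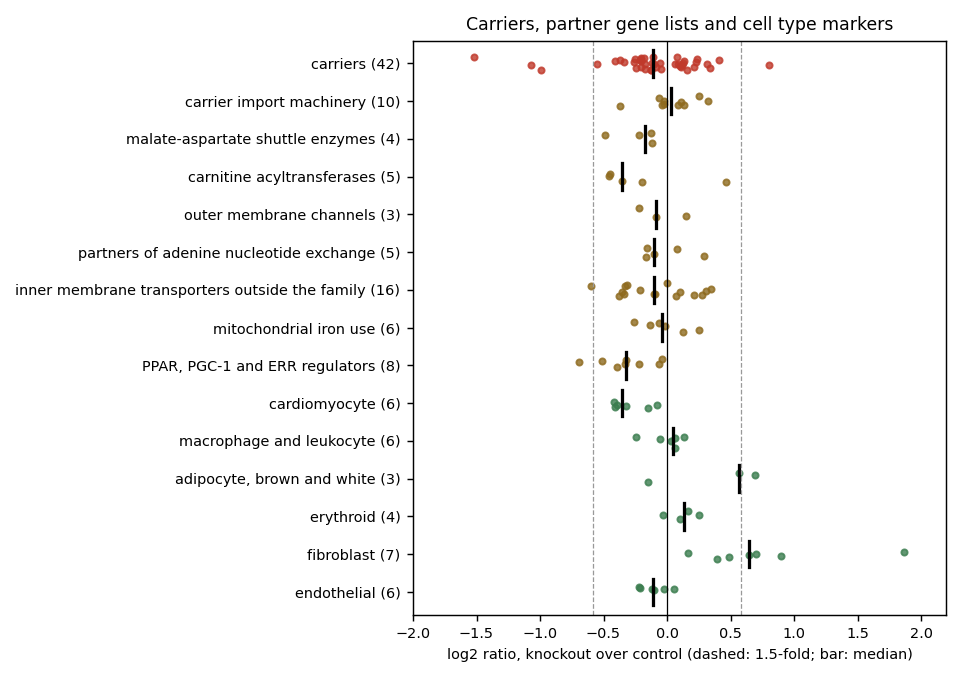
Log2 ratio of the knockout over the control pool (horizontal axis) for the carriers (red), lists of partner genes (brown) and cell type markers (green), 1 point per measured gene, with the number measured in brackets and black bars at the medians. Dashed lines mark 1.5-fold. The carriers center at -0.11, the regulators at -0.33, cardiomyocyte markers at -0.36 and fibroblast markers at 0.64. Slc25a53 is drawn at its bound, and Plin1, the middle adipocyte point, was not well above background in the control pool.

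Markers of the cells that a ventricle holds also differed between the pools. All 6 cardiomyocyte markers were lower in the knockout pool, or 4 of 6 without scaling and under quantile normalization, between -0.42 for Tnni3 and -0.08 for Tnnt2. Their summed relative signal was 3624 in the knockout pool and 4139 in the control pool. All 7 fibroblast markers were higher, led by Postn (1.87), Col1a1 (0.90), Col1a2 (0.70) and Col3a1 (0.64), with a summed relative signal of 406 in the knockout pool and 276 in the control pool, and Tcf21 was lowest at 0.16. Endothelial markers stood between -0.22 for Cdh5 and 0.06 for Vwf, with a median of -0.11 and sums of 53.4 in the knockout pool and 57.0 in the control pool, and 5 of 6 were lower, or 2 of 6 without scaling and 4 of 6 under cyclic loess. Among leukocyte markers the lowest was Itgam at -0.24. The median of the carriers was -0.11, against -0.01 for all measured genes, and the part of cell composition in the ratios of the carriers was not tested.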

How the data were processed

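Both arrays hold left ventricular RNA, 1 pool of 6 knockout and 1 pool of 6 control mice. The authors deposited intensities as the processed signal of Agilent Feature Extraction, background-subtracted and not scaled between arrays. The submitters' processing notes name version 10.5.1.1, whereas 10.10.1.1 stands in the scanner files. The authors' value table holds the same signal times 1 factor per array, on a linear scale. How the factor was set is not stated. It served as an alternative.

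Here, log2 of the signal minus the array's 75th percentile over 59305 noncontrol spots was taken, 269 spots flagged as outliers on 1 array or both were left out, and spots of a probe were averaged. No noncontrol spot was saturated (0). A probe was named by matching its accession to a table of mouse RefSeq genes, which gave a symbol to 26759 of 55676 probes. A gene is the mean of its probes that passed the well-above-background flag on 1 array or both. A gene above background on 1 array only was counted by its bound, the bright signal over the lowest signal above background on the other array. Log2 ratios are knockout minus control. Their number limits the precision.

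The members and lists were chosen with earlier results of these data known. The naming rule covered every member, and of each list the genes at least 1.5-fold different or else the lowest and highest. Some genes that this rule names are counted but not reported here. Tomm70 was matched under the symbol Tomm70a. Promoter windows came from RefSeq, GRCm38.p6. Alternatives were quantile normalization, median scaling, no scaling, cyclic loess, normexp with an offset of 50, 2 other probe filters, the brightest probe, the median over probes, the authors' value table and 2 other fold limits. The normexp correction used the median signal, a choice made after the columns had been seen. The steps were tested on simulated arrays. Python 3.11.15 (numpy 2.4.6, pandas 2.3.3) was used, with R 4.3.3 with limma 3.58.1.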

Additional observations from a re-analysis of the deposited data

How the results depend on the processing

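The count of members at least 1.5-fold higher was 1, and became 2 with the brightest probe of each gene, which adds Ucp3. Counted at a log2 difference of 0.32, 3 members were higher and 7 lower, and counted at 2-fold, 0 were higher and 2 lower. The count of members at least 1.5-fold lower was 3 under all alternatives except normexp and the filter for probes well above background on both arrays, which gave 2 without Slc25a53. The median of the members was -0.11 and lay between -0.12 and -0.07 in 9 alternatives, but was 0.0379 without scaling, where the median of all genes was 0.14. The number of members below 0 was 26, and lay between 18 without scaling and 30 with all probes (of 51 members). With all probes, 58.8% of members and 60.2% of all genes lay below 0, with medians of -0.11 and -0.10. No paired analysis was possible because each group holds 1 array. For the same reason no array could be left out. Dim members (Slc25a15, Slc25a30 and Slc25a53) have the largest error estimates. With 1 pool per genotype, none of the differences on these arrays could be set against variation between animals. The paper measured some of the genes named here by quantitative PCR in several animals per genotype. It reported Ucp2 as significantly increased and Cpt2 and Ppargc1a as significantly decreased in the knockout.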
